A study of Mus musculus with 12 samples.

Results

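The carboxylesterase genes described here are the 10 members Ces4a, Ces1b, Ces1c, Ces1e, Ces1g, Ces2a, Ces2c, Ces2e, Ces3a and Ces3b, out of 55536 genes measured by RNA sequencing of mouse liver. They were taken by gene name from both deposited tables. Ces4a was selected on its counts and TPM in shG0s2 and shLacZ, where its transcript was nearly lost in shG0s2, so its values are a description and carry no test. The other 9 members were taken as relatives of it. The tables hold 20 Ces genes in all, and the other 10 are given more briefly.

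The 12 liver samples formed 3 groups of 4. The shG0s2 group carried an adenovirus with a short hairpin RNA (shRNA) against G0s2, the shRgs16 group one against Rgs16, and the shLacZ group one against the bacterial lacZ gene as control. All groups were wild-type C57BL/6J mice aged 8 weeks, kept in 12 h of light and 12 h of dark. Mice received virus (0.1 OD) through the tail vein. Their livers were collected on day 12 at zeitgeber time 12, after a daytime food withdrawal of 6 h. All 3 groups therefore share adenoviral infection of the liver, and no uninfected animals are among them. The study's question is what lowering either gene does to transcripts of the liver.

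Carboxylesterases are serine hydrolases of the alpha/beta-hydrolase fold that split esters, amides and thioesters. Most of the liver enzymes stay in the endoplasmic reticulum of hepatocytes, where they act on drugs, pesticides and stored lipid, and a few are secreted. Several mouse Ces1, Ces2 and Ces3 enzymes hydrolyse triacylglycerol or diacylglycerol. The G0s2 protein inhibits adipose triglyceride lipase, another enzyme of stored fat, and Rgs16 is a GTPase-activating protein for G protein alpha subunits.

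Total counts per library ranged from 18458222 to 26031003 in shG0s2, from 24855297 to 27170419 in shRgs16 and from 25636445 to 26472189 in shLacZ. Levels of 1 gene between samples are given as CPM (counts brought to 1 common library total, with TMM factors over all 12 samples), and levels of different genes as the deposited TPM, which corrects for transcript length. The transcript lengths behind the TPM are not given, and TPM ratios differ from those of CPM by more than TMM alone: for Ces2e in shG0s2 over shLacZ the log2 ratio of means was 0.06 in TMM-scaled CPM, 0.55 by library size alone and 0.76 in TPM. G0s2 had 49.3, 37.9, 24.6 and 37.0 CPM in shG0s2, against 87.4, 74.2, 66.6 and 66.6 CPM in shLacZ. On the deposited TPM scale G0s2 had 125, 103, 60.4 and 95.01 in shG0s2, against 135, 114, 111 and 101 in shLacZ, and the groups overlapped. Rgs16 had 14.4, 19.7, 37.4 and 33.3 CPM in shRgs16, against 105, 212, 153 and 126 CPM in shLacZ. The shG0s2 samples also had less Rgs16, at 71.3, 59.0, 43.9 and 62.2 CPM. The choice of scale matters for the smaller changes below: without TMM, by library size alone, the median log2 fold change of all genes moved up by 0.49 for shG0s2 against shLacZ, by 0.30 for shRgs16 against shLacZ and by 0.20 for shG0s2 against shRgs16. Fold changes are relative to the bulk of genes, on the TMM scale, unless another scale is named.

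Ces4a encodes a carboxylesterase that is predicted to be secreted and whose role in the liver is little characterised. It had 8, 3, 7 and 8 counts in the shG0s2 libraries and 54, 21, 95 and 34 counts in the shRgs16 libraries, against 347, 381, 367 and 349 counts in the shLacZ libraries. As scaled levels these were 0.268, 0.131, 0.243 and 0.291 CPM in shG0s2 and 1.93, 0.764, 3.72 and 1.35 CPM in shRgs16, against 16.1, 17.98, 16.2 and 16.4 CPM in shLacZ. No sample of one group reached the range of another, with shG0s2 lowest, shRgs16 between and shLacZ highest. The control libraries lay close together, while the shRgs16 libraries spread widely, with replicate 3 the highest and replicate 2 the lowest.

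The Ces4a mean was 0.233 ± 0.0711 CPM in shG0s2 and 1.94 ± 1.28 CPM in shRgs16, against 16.7 ± 0.867 CPM in shLacZ (SD, n = 4 each). The fitted log2 fold change was −6.09 (SE 0.163) for shG0s2 against shLacZ, a level 68.3-fold lower. For shRgs16 against shLacZ it was −3.11 (SE 0.357), a level 8.65-fold lower, in a comparison that uses the same shLacZ samples. For shG0s2 against shRgs16 it was −3.00 (SE 0.486). Leaving out shRgs16 replicate 3 moved the log2 fold change of shRgs16 against shLacZ to −3.62 and that of shG0s2 against shRgs16 to −2.48. The authors' deposited table gives log2 fold changes of −6.14 for shG0s2 and −3.11 for shRgs16, each against shLacZ. None of the 2384 stretches of 50 bases in the longest Ces4a transcript occurs in a transcript of another gene.

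**Figure D1:**
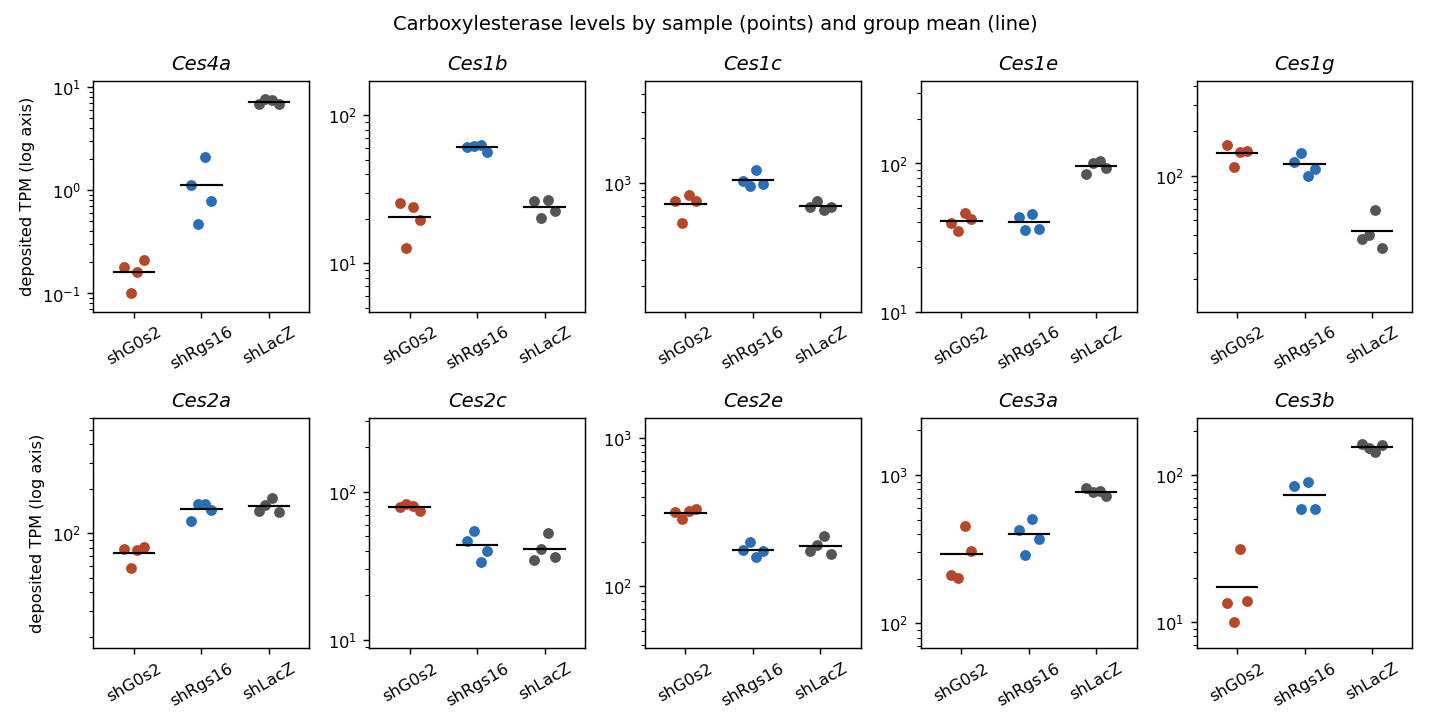
Deposited TPM of the 10 carboxylesterase members (1 panel each, log axis) in the 4 shG0s2, 4 shRgs16 and 4 shLacZ samples; points are samples and lines are group means. Ces4a averages 0.163 TPM in shG0s2 and 1.12 TPM in shRgs16, against 7.22 TPM in shLacZ, and Ces1g is higher in both knockdowns than in shLacZ.

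Ces4a (ENSMUSG00000060560) lies on chromosome 8, from 105131800 to 105150109 on the plus strand (GRCm38). It is the last of 11 Ces genes in a cluster that begins with Ces2a at 104734003, and its upstream neighbour is Ces3b (ENSMUSG00000062181; 105083753 to 105093929, plus strand), 37.9 kb away. The other 9 Ces genes form a second cluster on the same chromosome, on the minus strand, from Ces1a at 93020214 to Ces5a ending at 93535830. Of 26 protein-coding genes within 500 kb of Ces4a that are not Ces genes, 21 were tested in shG0s2 against shLacZ, and 4 fell while 9 rose, with a median log2 fold change of 0.14, where 29.2% of all genes fell and 31.3% rose. The lowest of them was Lrrc29 at −0.65 and the highest Slc9a5 at 2.06. In shRgs16 against shLacZ 20 were tested, and 6 fell while 6 rose, with a median of 0.18, where 24.5% of all genes fell and 24.6% rose.

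The 250 bases before the RefSeq start of Ces4a and of its neighbour Ces3b are shown because these adjacent genes had the lowest log2 fold changes among the members in shG0s2 against shLacZ. They come from RefSeq (GRCm38.p6), plus strand, at chr8:105131550-105131799 for Ces4a and chr8:105083505-105083754 for Ces3b. Capitals mark matches to any of 7 motifs that were searched on both strands, in windows of 250 bases before to 50 bases after the start, and chosen after the sequences were seen.
Ces4a: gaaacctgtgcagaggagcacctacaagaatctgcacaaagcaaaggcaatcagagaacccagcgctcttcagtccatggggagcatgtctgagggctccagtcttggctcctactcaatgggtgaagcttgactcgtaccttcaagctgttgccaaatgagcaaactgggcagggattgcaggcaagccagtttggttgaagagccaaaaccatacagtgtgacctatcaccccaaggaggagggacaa
Ces3b: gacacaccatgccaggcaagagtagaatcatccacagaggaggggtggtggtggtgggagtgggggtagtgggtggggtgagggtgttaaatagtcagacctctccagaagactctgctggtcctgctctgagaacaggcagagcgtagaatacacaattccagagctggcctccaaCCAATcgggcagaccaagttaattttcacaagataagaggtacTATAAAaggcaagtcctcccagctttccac

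In the Ces3b window the capitals are a CCAAT box (CCAAT, 73 bases before the start, found in 37.4% of the 32851 RefSeq windows) and a TATA box (TATAAA, 30 bases before, in 13.6%). The Ces4a window held no match to these or to the other 5 motifs, which were the STAT5 motif TTCNNNGAA (8.3% of windows), the HNF4 motif CAAAGTCCA (0.5%), the antioxidant response element TGACNNNGC (12.4%), the D-box TTANGTAA (2.3%) and the E-box CACGTG (7.2%). This says only that these letters are not in the window. A window was listed for 15 of the 20 Ces genes and for 9 of the 10 members; Ces3a had none.

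Of the 9 members tested, 6 fell in shG0s2 against shLacZ (Ces1b, Ces1c, Ces1e, Ces2a, Ces3a and Ces3b), 2 rose (Ces1g and Ces2c), and Ces2e did not pass the threshold. Over all 15592 genes tested by edgeR at an adjusted p under 0.05, 29.2% fell and 31.3% rose. The median log2 fold change was −0.92 over these 9 members and 0.0093 over all genes. In shRgs16 against shLacZ 5 of the 9 fell (Ces1e, Ces2a, Ces2e, Ces3a and Ces3b), 2 rose (Ces1b and Ces1g), and Ces1c and Ces2c did not pass. There 24.5% of 15324 genes fell and 24.6% rose, and the medians were −0.51 over the 9 members and 0.0083 over all genes. Both comparisons use the same shLacZ samples. With library size alone 4 of the 9 fell and 3 rose in shG0s2, with medians of −0.44 over the 9 members and 0.50 over all genes. On that scale 1246 of all 15592 genes fell and 10067 rose. In shRgs16 3 of the 9 fell and 3 rose with library size alone, with medians of −0.21 and 0.31. There 1279 of all 15324 genes fell and 7686 rose. Between the knockdowns, shG0s2 was lower than shRgs16 for 4 of the 9 (Ces1b, Ces1c, Ces2a and Ces3b) and higher for 2 (Ces2c and Ces2e), where 20.5% of 16018 genes were lower and 21.0% higher. The members were listed with earlier results of these data known, so their shares beside those of all genes are a description.

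**Figure D2:**
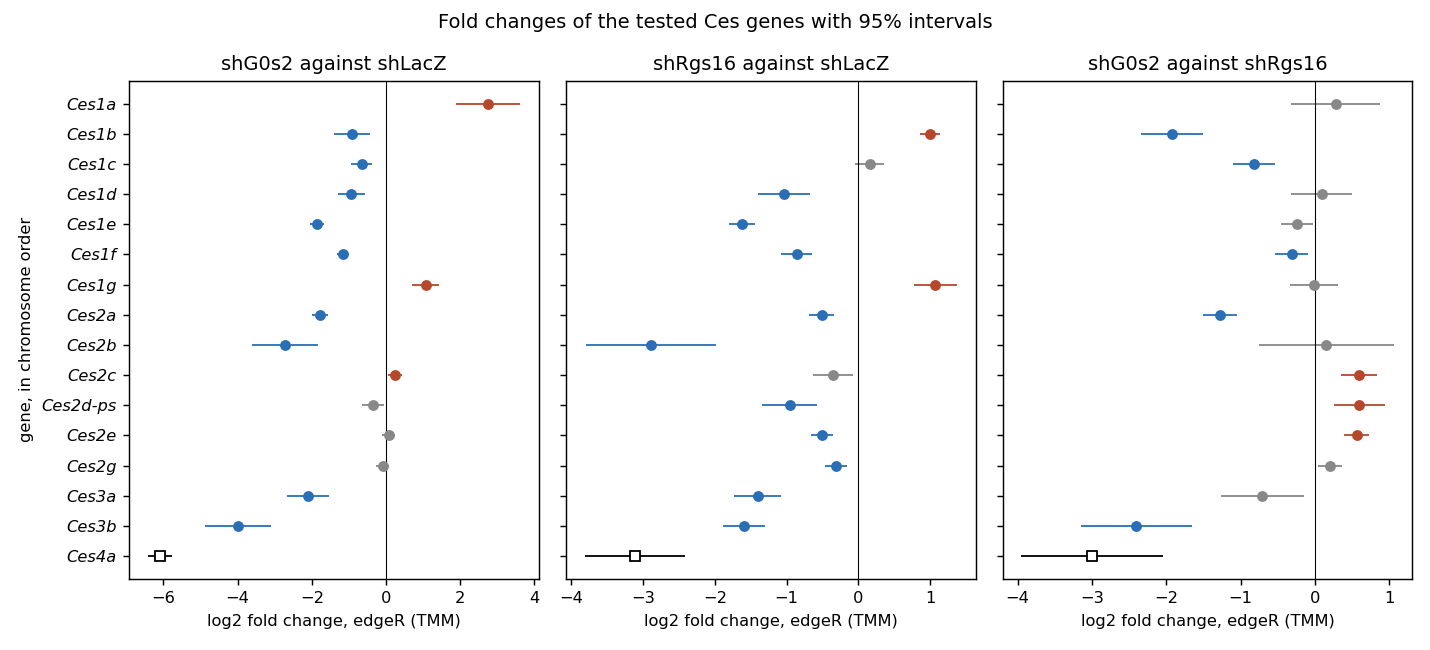
Log2 fold changes (edgeR, TMM) of the Ces genes that passed the filter on low counts, in chromosome order, for shG0s2 against shLacZ, shRgs16 against shLacZ and shG0s2 against shRgs16; bars are 95% intervals, blue is called lower, red called higher and grey not called at an adjusted p of 0.05, and the open square is Ces4a, which has no test. Ces3b has the lowest value after Ces4a in shG0s2 against shLacZ (−3.98), and Ces1b falls on opposite sides of 0 in the 2 comparisons with shLacZ.

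The Ces3 genes fell in both knockdowns. Ces3a, first described as an esterase of male mouse liver, had 219.7, 204, 506 and 324 CPM in shG0s2 and 541, 351, 674 and 480.1 CPM in shRgs16, against 1413, 1371, 1301 and 1304 CPM in shLacZ. Every knockdown library was below every control library, while the knockdowns overlapped each other. Ces3a fell by 2.09 on the log2 scale in shG0s2 (SE 0.289, edgeR adjusted p = 0.000396) and fell by 1.40 in shRgs16 (SE 0.167, adjusted p = 0.000125). The difference between the knockdowns was −0.71 (SE 0.283) and did not pass (adjusted p = 0.0703).

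Ces3b, the close relative of Ces3a, had 14.4, 9.92, 38.9 and 15.2 CPM in shG0s2 and 113, 81.5, 135 and 88.0 CPM in shRgs16, against 321, 322, 280.5 and 332 CPM in shLacZ. The 3 groups did not overlap, and they stood in the same order as for Ces4a. In shG0s2 replicate 3 was far above the other libraries for both Ces3a and Ces3b. Ces3b fell by 3.98 in shG0s2 against shLacZ (SE 0.451, adjusted p = 0.000257), a level 15.8-fold lower, and by 1.59 in shRgs16 against shLacZ (SE 0.152, adjusted p = 4.44e-05). The shG0s2 level was also below that of shRgs16, at −2.40 (SE 0.383, adjusted p = 0.000747). Without shG0s2 replicate 3 the log2 fold changes of shG0s2 were −4.56 against shLacZ and −2.99 against shRgs16. Of the 50-base stretches of the transcripts, 30.9% of those of Ces3a also occur in Ces3b and 26.13% of those of Ces3b in Ces3a, so reads from these stretches could have been divided between them by the counting model.

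The Ces1 genes moved in different directions. Ces1g, an endoplasmic reticulum enzyme that in mice limits lipid synthesis and the secretion of triacylglycerol-rich lipoprotein, was the member with a ratio above 0 on the log2 scale in both knockdowns on all 3 scales used. It had 230.1, 147, 209 and 201 CPM in shG0s2 and 206, 229.7, 171 and 188 CPM in shRgs16, against 86.1, 91.0, 125 and 76.1 CPM in shLacZ. Both knockdowns lay above all control libraries and overlapped each other. The log2 fold change was 1.07 in shG0s2 (SE 0.181, adjusted p = 0.001) and 1.07 in shRgs16 (SE 0.155, adjusted p = 0.000549). Between the knockdowns Ces1g differed by −0.02 (SE 0.166, adjusted p = 0.95), with a 95% interval from −0.34 to 0.31, and this value turned to 0.18 with library size alone.

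Ces1e, also known as egasyn, holds beta-glucuronidase in the endoplasmic reticulum. It had 52.7, 42.2, 60.2 and 52.3 CPM in shG0s2 and 66.6, 52.0, 70.8 and 56.5 CPM in shRgs16, against 171, 202, 190.5 and 190.0 CPM in shLacZ. The knockdowns overlapped each other, and both lay far below the controls. Ces1e fell by 1.85 in shG0s2 (SE 0.0981, adjusted p = 5.65e-08) and fell by 1.62 in shRgs16 (SE 0.0942, adjusted p = 6.16e-07). The difference between the knockdowns was −0.25 (SE 0.109, adjusted p = 0.0893).

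Ces1b, a less studied gene of the same cluster, went opposite ways in the knockdowns. It had 32.5, 14.1, 31.9 and 23.7 CPM in shG0s2 and 99.1, 94.8, 104 and 92.0 CPM in shRgs16, against 53.0, 43.1, 52.3 and 46.9 CPM in shLacZ. The 3 groups did not overlap on this scale. Ces1b fell by 0.92 in shG0s2 (SE 0.245, adjusted p = 0.013) and rose by 0.99 in shRgs16 (SE 0.0715, adjusted p = 1.49e-06), and the direct difference of shG0s2 against shRgs16 was −1.92 (SE 0.210, adjusted p = 3.99e-05). The rise in shRgs16 held on each scale, whereas the fall in shG0s2 no longer passed with library size alone (−0.44), and in deposited TPM shG0s2 and shLacZ overlapped, at 12.8 to 25.6 against 20.2 to 26.8 TPM.

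Ces1c encodes the carboxylesterase that circulates in mouse plasma. It had 785, 508, 878 and 759.9 CPM in shG0s2 and 1275, 1126, 1564 and 1219.9 CPM in shRgs16, against 1156, 1275, 1035 and 1182 CPM in shLacZ. Only the shG0s2 group stood apart, with replicate 2 the lowest. Ces1c fell by 0.66 in shG0s2 against shLacZ on the TMM scale (SE 0.148, adjusted p = 0.00262), but did not pass with library size alone (−0.17), and in deposited TPM the ratio of means turned to 0.04. In shRgs16 it differed from shLacZ by 0.15 (SE 0.103, adjusted p = 0.235), and with library size alone this was 0.46 and passed. The difference of shG0s2 against shRgs16 passed, at −0.82 (SE 0.146, adjusted p = 0.000447). Ces1b and Ces1c share part of their transcripts: 9.92% of the 50-base stretches of Ces1b occur in Ces1c, and 10.68% of those of Ces1c in Ces1b.

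The Ces1 members also had a sequence in common near their starts. All 4 had a D-box (TTANGTAA, either strand) in the RefSeq window, as had 5 of the 6 Ces1 windows listed, against 0 of the 9 windows of Ces2, Ces3, Ces4a and Ces5a and 2.3% of all 32851 windows. The motif was chosen after the sequences were seen, and related genes can share sequence by descent. These shares are therefore a description and not a test. The D-box is the element through which the clock-output factors DBP, TEF and HLF act in liver. The matches below are printed on the minus strand of chromosome 8 (GRCm38.p6), with the D-box in capitals and up to 20 bases on each side, at chr8:93079997-93080044 for Ces1b, chr8:93131350-93131397 for Ces1c, chr8:93229673-93229720 for Ces1e and chr8:93337414-93337459 for Ces1g.
Ces1b: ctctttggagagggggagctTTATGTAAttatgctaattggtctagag
Ces1c: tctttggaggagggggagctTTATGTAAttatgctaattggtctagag
Ces1e: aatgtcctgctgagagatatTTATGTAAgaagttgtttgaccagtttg
Ces1g: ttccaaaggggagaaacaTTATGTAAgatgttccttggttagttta

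The stretches of Ces1b and Ces1c shared an unbroken run of 39 identical bases, and no other pair of these 4 shared more than 10. The D-box began 94 bases before the start in Ces1c, 81 in Ces1e (which has a second match, TTACTTAA, 156 bases before) and 232 in Ces1g, and 84 or 7 bases before the 2 starts listed for Ces1b. In shRgs16 against shLacZ Ces1b and Ces1g rose, Ces1e fell and Ces1c did not pass. Whether the D-box has a part in these values was not tested. A match is a description of letters and not a measured binding site.

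The Ces2 members were split. Ces2a, an enzyme that hydrolyses diacylglycerol and triacylglycerol, had 78.4, 59.5, 88.9 and 83.1 CPM in shG0s2 and 157, 197, 215 and 185 CPM in shRgs16, against 248, 279, 288 and 256 CPM in shLacZ. The 3 groups did not overlap on this scale. It fell by 1.78 in shG0s2 (SE 0.113, adjusted p = 2.81e-07) and fell by 0.51 in shRgs16 (SE 0.0884, adjusted p = 0.000557), and shG0s2 was below shRgs16 at −1.28 (SE 0.117, adjusted p = 2.06e-06). The small fall in shRgs16 did not pass with library size alone (−0.21), and in deposited TPM shRgs16 overlapped shLacZ. Reads of Ces2a could also be uncertain, since 20.88% of its 50-base stretches occur in the predicted gene Gm7208.

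Ces2c, an esterase of lipids and drugs in mouse liver, had 89.8, 86.0, 93.4 and 82.4 CPM in shG0s2 and 62.3, 70.1, 46.5 and 54.3 CPM in shRgs16, against 63.9, 75.8, 90.4 and 67.8 CPM in shLacZ. On this scale the controls overlapped both knockdowns, while the knockdowns did not overlap each other. The log2 fold change in shG0s2 against shLacZ was 0.25 (SE 0.0954, adjusted p = 0.0397), and it lay from 0.19 to 0.36 with each sample left out, no longer passing in 6 of these 8 fits. In shRgs16 against shLacZ it was −0.35 (SE 0.144, adjusted p = 0.0698). The authors' deposited table placed both on the other side of the same threshold, with an adjusted p of 0.0591 for shG0s2 and 0.0283 for shRgs16. The direct difference of shG0s2 against shRgs16 was larger, at 0.59 (SE 0.124, adjusted p = 0.00205). In deposited TPM Ces2c had 74.7 to 83.1 in shG0s2 and 33.5 to 54.4 in shRgs16, against 34.7 to 52.9 in shLacZ, so that shG0s2 stood apart on that scale.

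Ces2e, a liver and intestinal member, had 374, 306, 388 and 383 CPM in shG0s2 and 246, 267, 224 and 245 CPM in shRgs16, against 328, 360.2, 385 and 319 CPM in shLacZ. On the TMM scale shRgs16 alone stood apart from the controls. Ces2e fell by 0.51 in shRgs16 against shLacZ (SE 0.0755, adjusted p = 0.000188), while in shG0s2 it differed by 0.07 (SE 0.0902, adjusted p = 0.528). Between the knockdowns, shG0s2 was above shRgs16 at 0.56 (SE 0.0856, adjusted p = 8.67e-05). Scaling decided which knockdown stood apart from shLacZ: with library size alone Ces2e passed as higher in shG0s2 (0.55) and did not pass in shRgs16 (−0.21), and in deposited TPM it had 284 to 334 in shG0s2 and 156 to 199 in shRgs16, against 164 to 217 in shLacZ. Ces2c shared 38.21% of its 50-base stretches with the pseudogene Ces2d-ps, against 3.36% shared with any gene for Ces2e.

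**Figure D3:**
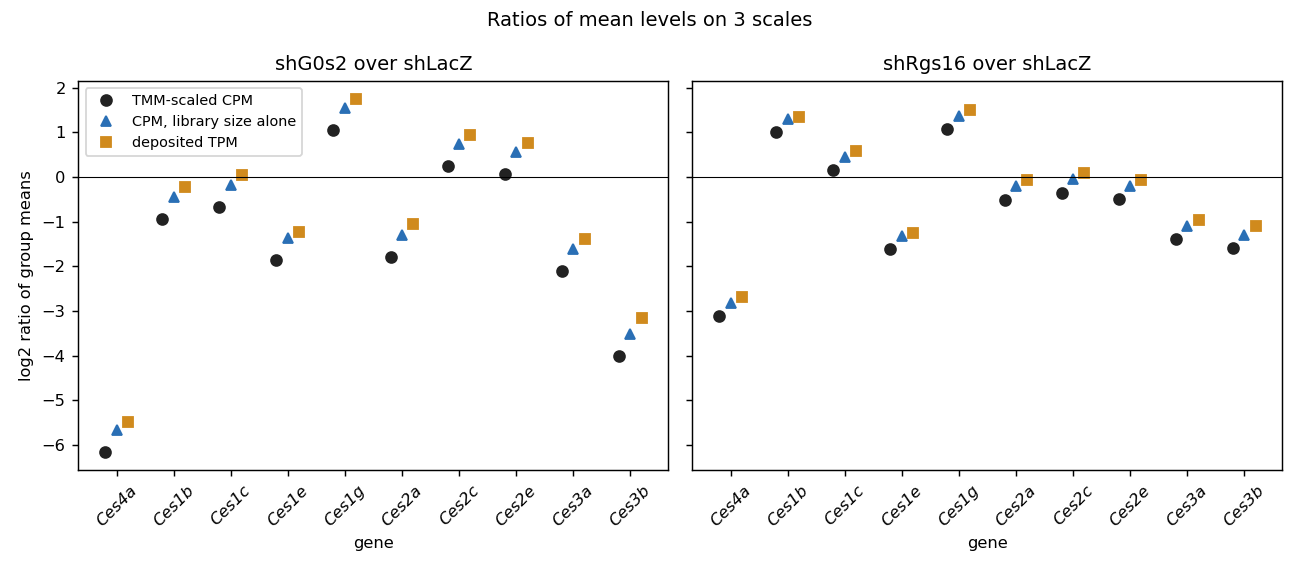
Log2 ratio of group means for the 10 members in shG0s2 over shLacZ and shRgs16 over shLacZ on 3 scales: TMM-scaled CPM, CPM by library size alone and deposited TPM. The points of a gene move up together from TMM to TPM, which leaves Ces4a, Ces3a, Ces3b, Ces1e and Ces2a below 0 and Ces1g above 0 on each scale in both knockdowns. Ces2a in shRgs16 comes close to 0 in TPM (−0.07), and Ces1c in shG0s2 goes to 0.04 in TPM.

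Of the 10 Ces genes outside the 10 members, 6 passed the filter on low counts in shG0s2 against shLacZ and 5 in shRgs16 against shLacZ. Ces1f fell by 1.16 in shG0s2 (SE 0.0866, adjusted p = 4.54e-07) and fell by 0.86 in shRgs16 (SE 0.112, adjusted p = 0.000108); its lower level in shG0s2 than in shRgs16 (−0.31) did not pass with library size alone, and its log2 ratio of mean TPM there was 0.02. Ces1d, known as triacylglycerol hydrolase, fell by 0.93 in shG0s2 (SE 0.188, adjusted p = 0.00225) and fell by 1.04 in shRgs16 (SE 0.186, adjusted p = 0.00201), although in deposited TPM its range overlapped that of shLacZ in both knockdowns. Ces2b fell by 2.72 in shG0s2 (SE 0.450, adjusted p = 0.000542) and fell by 2.89 in shRgs16 (SE 0.462, adjusted p = 0.000757), from low levels that reached 9.16 CPM in 1 shLacZ library and 2.21 to 4.001 CPM in the others. Ces2g and the pseudogene Ces2d-ps passed as lower in shRgs16 (−0.31 and −0.96) and did not pass in shG0s2 (−0.09 and −0.35, which turned to 0.39 and 0.13 with library size alone). For Ces2g the fall in shRgs16 did not pass with library size alone (−0.01), and the log2 ratio of mean TPM was 0.12.

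Ces1a, at the end of the Ces1 cluster, had 14, 10, 13 and 17 counts in shG0s2 and 11, 9, 14 and 9 counts in shRgs16, against 2, 1, 1 and 2 counts in shLacZ. In shG0s2 it entered the test only because the knockdown libraries had enough counts, so its call (log2 fold change 2.75, SE 0.443) adds nothing to the counts above, and in shRgs16 it did not enter. Ces1h, Ces2f and Ces2h had 0 to 3 counts in every library. Ces5a, known as cauxin, a urinary protein of cats, had 0 counts in all 12.

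**Figure D4:**
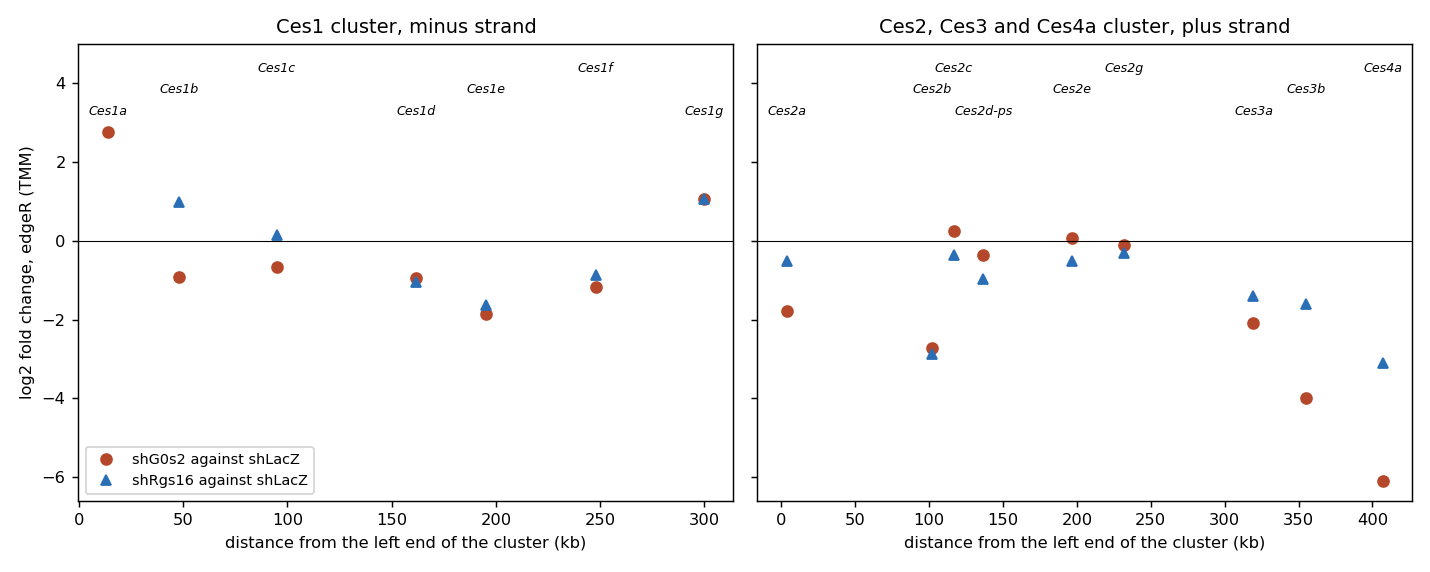
Log2 fold change (edgeR, TMM) of the tested Ces genes against distance in kb from the left end of each cluster, for shG0s2 against shLacZ (circles) and shRgs16 against shLacZ (triangles). In the cluster on the plus strand the last 3 genes, Ces3a, Ces3b and Ces4a, have values in shG0s2 of −2.09, −3.98 and −6.09, Ces2a and Ces2b lie at −1.78 and −2.72, and Ces2c, Ces2e and Ces2g near 0.

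Levels per length show how the family was made up. In shG0s2 the order of mean TPM began with Ces1c at 717 ± 125, followed by Ces2e at 314 ± 21.3, Ces1d at 311 ± 74.4 and Ces3a at 293 ± 115 (SD, n = 4 each), and the ranges of these last 3 overlapped. In shRgs16 it began with Ces1c at 1049 ± 124, Ces3a at 398 ± 92.7 and Ces1d at 247 ± 52.6. In shLacZ Ces3a came first at 771 ± 40.6 and Ces1c next at 697 ± 40.2, with overlapping ranges, followed by Ces1d at 364 ± 68.8. Ces3b stood at 17.2 ± 9.73 TPM in shG0s2 and 72.5 ± 16.1 in shRgs16, against 154 ± 8.60 in shLacZ, where it overlapped Ces2a at 152 ± 15.5. Ces4a was a minor transcript in each group: it ranked 16 of the 20 Ces genes in shG0s2 and 14 in both shRgs16 and shLacZ.

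Summed over the 20 genes, Ces transcripts came to 2251 ± 305 TPM in shG0s2 and 2572 ± 280 TPM in shRgs16, against 2826 ± 158 TPM in shLacZ (SD, n = 4 each). On the TPM scale the sums of shG0s2 lay from 1829.5 to 2556 and did not reach those of shLacZ, from 2593 to 2944. Those of shRgs16, from 2358 to 2949.9, overlapped both. Distances between these sums depend on the scale, since ratios of the members to shLacZ were higher in TPM than in TMM-scaled CPM. For Ces1c and Ces3a in shRgs16 the log2 ratios were 0.59 and −0.95 in TPM, against 0.16 and −1.40 in TMM-scaled CPM. No sum in TMM-scaled CPM is given here. The share of the sum from Ces3a and Ces3b was 13.5% ± 3.99 in shG0s2 and 18.1% ± 2.45 in shRgs16, against 32.8% ± 1.26 in shLacZ. Ces1 genes made up 62.9% ± 3.28 in shG0s2 and 66.0% ± 0.601 in shRgs16, against 52.1% ± 1.40 in shLacZ. The Ces2 share was 23.6% ± 2.28 in shG0s2 and 15.9% ± 2.53 in shRgs16, against 14.9% ± 1.58 in shLacZ. The Ces3 share was lower in every knockdown library than in every control library. These sums and shares are a description with no test.

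**Figure D5:**
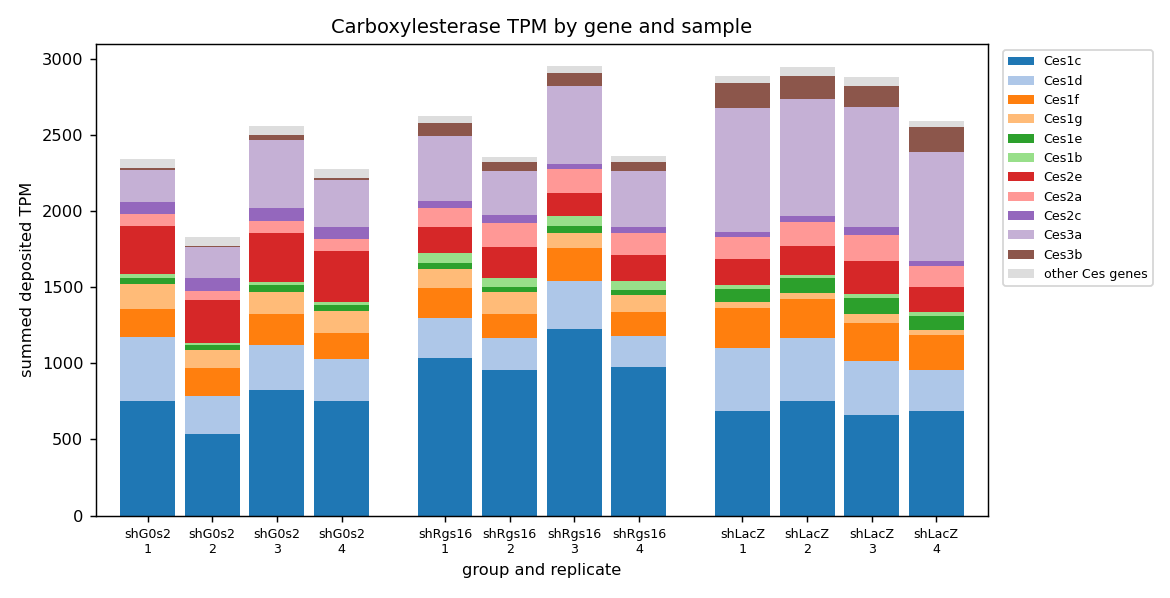
Stacked deposited TPM of the Ces genes in each of the 12 samples (4 shG0s2, 4 shRgs16 and 4 shLacZ), 1 colour per gene. The sums run from 1829.5 to 2949.9, and the bars of Ces3a and Ces3b are shorter in shG0s2 and shRgs16 than in shLacZ.

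Within the groups, members varied together to different degrees. In shRgs16 replicate 3 was the highest and replicate 2 the lowest library for Ces4a, Ces3a, Ces3b, Ces1c and Ces1e, while for Ces1g replicate 2 was the highest and replicate 3 the lowest. Over deviations of log2 CPM from the group means in all 12 samples, Pearson's r was 0.92 between Ces2e and Ces1g, 0.91 between Ces3a and Ces3b and 0.86 between Ces1c and Ces1e, and the lowest of the 45 pairs was Ces2c with Ces4a at −0.58. These are descriptions of samples that share a library, with no test.

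The 5 genes whose log2 CPM (prior count 2) followed Ces4a most closely over the 12 samples, by Pearson's r, were Pipox (0.996), Tspan12 (0.993), Apoa2 (0.992), Lrit1 (0.991) and Abcb6 (0.991). Pipox encodes a peroxisomal oxidase of sarcosine and pipecolic acid and had 128 to 141 CPM in shG0s2 and 164 to 206 CPM in shRgs16, against 252 to 266 CPM in shLacZ. Apoa2, an apolipoprotein of high-density lipoprotein, had 1099.6 to 1307 CPM in shG0s2 and 1626 to 1886 CPM in shRgs16, against 2791 to 2976 CPM in shLacZ. All 5 had 3 groups in the order of Ces4a, without overlap, over a far narrower range. This order was largely set in advance, because they were picked by r with Ces4a over the same samples. Within the family the highest r with Ces4a was 0.96 for Ces1f, followed by 0.95 for Ces3a and 0.95 for Ces3b, and that of Ces1g was −0.81. Because the groups set most of this, r of the deviations from the group means is lower, at 0.80 for Ces1f, 0.64 for Ces3a and 0.49 for Ces3b. The highest r of deviations with Ces4a in the family was 0.81, for Ces1e, whose r over the 12 samples was 0.94. For the 5 genes above r of the deviations ran from 0.80 (Apoa2) to 0.90 (Pipox). They were picked on an r that includes these deviations, so their values cannot be set beside those of the family.

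Other esterases and lipid hydrolases moved in both directions. Of 21 such genes listed, 14 fell and 5 rose in shG0s2 against shLacZ (median log2 fold change −0.49), including Afmid, a kynurenine formamidase, at −1.60 and Lcat, the plasma cholesterol acyltransferase, at −1.19. In shRgs16 against shLacZ 8 fell and 1 rose (median −0.13), including Lcat at −0.71 and Aadac, arylacetamide deacetylase, at −0.69. In shG0s2 against shRgs16 10 were lower and 6 higher, including Pon1, paraoxonase, at −1.21 and Faah, fatty acid amide hydrolase, at −0.90. With library size alone 8 were lower and 9 higher in shG0s2 against shLacZ, 5 lower and 10 higher in shRgs16 against shLacZ, and 8 lower and 9 higher in shG0s2 against shRgs16. For all lists here and below, the shares of all genes called with TMM were 29.2% lower and 31.3% higher in shG0s2 against shLacZ. They were 24.5% and 24.6% in shRgs16 against shLacZ, and 20.5% and 21.0% in shG0s2 against shRgs16. List counts with library size alone have another background. There 1246 of 15592 genes were lower and 10067 higher in shG0s2 against shLacZ. In shRgs16 against shLacZ 1279 of 15324 were lower and 7686 higher, and in shG0s2 against shRgs16 1568 of 16018 and 6054.

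Of 16 genes of liver transcription factors listed, 11 fell and 1 rose in shG0s2 against shLacZ, with Hnf4a, a nuclear receptor of hepatocyte identity, at −0.96 and Nfe2l2, the oxidative stress regulator Nrf2, at 1.17. In shRgs16 against shLacZ 9 fell and 1 rose, with Rxra at −0.66. In shG0s2 against shRgs16 5 were lower and 3 higher, again with Nfe2l2 (0.90) and Hnf4a (−0.51) called. With library size alone 4 were lower and 4 higher in shG0s2 against shLacZ, 3 lower and 4 higher in shRgs16 against shLacZ, and 1 lower and 5 higher in shG0s2 against shRgs16.

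Of 12 genes known to be induced through the xenobiotic receptors CAR and PXR, 6 fell and 3 rose in shG0s2 against shLacZ. Cyp2c29 was at −1.60 and Cyp2c55 at 2.93. In shRgs16 against shLacZ 3 fell and 4 rose, with Ugt1a1, the bilirubin glucuronosyltransferase, at −1.07 and Slco1a4, a hepatic organic anion uptake carrier, at 1.88. In shG0s2 against shRgs16 6 were lower and 4 higher, including Cyp2c37 at −2.59 and Ugt1a1 at 0.73. The shRgs16 counts are near the shares of all genes called lower (24.5%) and higher (24.6%). With library size alone 3 were lower and 6 higher in shG0s2 against shLacZ, 2 lower and 6 higher in shRgs16 against shLacZ, and 5 lower and 5 higher in shG0s2 against shRgs16.

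Markers of liver cell types moved in the same comparisons, and in bulk tissue fewer cells of a type and less RNA per cell cannot be told apart. Of 15 hepatocyte markers tested, 13 fell in shG0s2 (median −0.61), and 8 fell and 2 rose in shRgs16 (median −0.38), each against shLacZ. With library size alone 6 fell and 2 rose in shG0s2, and 3 fell and 6 rose in shRgs16. Their summed level was 46908 to 74162 CPM in shG0s2 and 76236 to 81531 CPM in shRgs16, against 67923 to 84919 CPM in shLacZ, so shRgs16 lay within the range of shLacZ. A sum gives most weight to the most abundant markers, while the counts of falls and rises weigh each marker alike. Of 14 Kupffer cell and macrophage markers 13 rose in shG0s2, and of 13 tested 12 rose in shRgs16. The marker not tested in shRgs16 passed the filter in shG0s2 only through the knockdown libraries, where it was higher. Its rise therefore adds nothing to the shG0s2 count. Their sum was 1748 to 2037 CPM in shG0s2 and 1620.3 to 1853 CPM in shRgs16, against 1122 to 1231 CPM in shLacZ.

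Of 10 stellate cell and fibroblast markers 10 rose in shG0s2 and 7 in shRgs16, with sums of 1184 to 1478 CPM in shG0s2 and 486 to 918 CPM in shRgs16, against 255 to 355 CPM in shLacZ. Of 12 T and NK cell markers 9 rose in shG0s2 and 10 in shRgs16, with sums of 40.2 to 47.0 CPM in shG0s2 and 37.4 to 50.01 CPM in shRgs16, against 8.98 to 28.3 CPM in shLacZ. The endothelial list had 1 rise and 3 falls among 10 in shG0s2 and 4 rises in shRgs16, and with library size alone 6 rises and 1 fall in shG0s2 and 8 rises in shRgs16. Cholangiocyte markers rose in 2 of 6 in each knockdown, and with library size alone in 5 in shG0s2 and 3 in shRgs16. B and plasma cell markers rose in 1 of 6 in shG0s2 and 2 of 6 in shRgs16, and with library size alone in 2 and 3. The neutrophil sum overlapped between groups, at 25.8 to 42.6 CPM in shG0s2 and 13.6 to 35.2 CPM in shRgs16, against 13.2 to 37.0 CPM in shLacZ, and library size alone called 3 of 4 of these markers higher in shG0s2 and 1 in shRgs16. With library size alone the macrophage, stellate and T and NK cell lists had 14, 10 and 10 rises in shG0s2 and 13, 9 and 11 in shRgs16. The 14 again include the macrophage marker that was not tested in shRgs16 against shLacZ. No marker found under its listed name was at 0 counts throughout a group, and a name not found was not counted. The part of these shifts in the carboxylesterase values was not tested.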

How the data were processed

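Liver RNA, depleted of ribosomal RNA per the labels' protocols, was sequenced in 12 samples, 4 per group, grouped by their titles. The authors deposited 2 tables, of shG0s2 and of shRgs16 with shLacZ. Per the file headers these hold estimated counts and TPM per gene and sample, and the authors' fold change as a ratio, log2 fold change, p-value and adjusted p-value. Named in the submitters' processing notes are SAMtools 1.9, Bowtie2 2.2.9, DESeq2, GATK 3.8 and fastp 0.19.5. Neither genome build, annotation, counting program nor strand setting is given in the sources used here. Where Ces relatives share sequence, reads could have been divided between them, so their values are less certain, and antisense reads cannot be told apart. The shLacZ values were the same in both tables (0 of 8 columns differing), so the tables were merged.

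Rounded counts passed filterByExpr and TMM scaling, and the test was edgeR 4.0.16's two-sided quasi-likelihood F test (robust) in R 4.3.3, with Benjamini-Hochberg adjustment over all genes tested and a threshold of 0.05. Adjusted p-values without another name are from this test. Standard errors are the absolute log2 fold change divided by the square root of F. Each knockdown was compared with shLacZ on 8 samples, and shG0s2 with shRgs16 in a model of all 12. The tests were checked on simulated data. Alternatives were DESeq2 1.42.0, limma-voom (limma 3.58.1), no filter, library size alone, relative log expression scaling, other samples in the model, a replicate block, and omission of each sample.

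The members and lists were chosen with earlier results of these data known. Genes named are the members, other Ces genes that passed the filter, up to 2 genes of each other list with the smallest p (1 of these is not reported here), and the 5 most correlated with Ces4a; predicted genes that share sequence with members, and the lowest and highest neighbours of Ces4a, were named after their values were seen. For the marker lists counts and sums are given in place of gene names. All 55536 gene identifiers matched GENCODE on GRCm38, which gave the coordinates. Whether replicates are separate animals is not in the labels, and p-values therefore measure only the spread between these samples, which may be technical. Pairs within a group gave chi-square values of 11.25 to 43.39 for each degree of freedom, above counting noise.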

Additional observations from a re-analysis of the deposited data

Results flagged for a closer look

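Ces4a in shLacZ replicate 2 stood apart from the other control libraries, at 17.98 CPM against 16.1 to 16.4 CPM. Its gap to the nearest library was 0.847 of the range of the 4 libraries, which singled it out; these values are among those that chose Ces4a and are a description. In the 48 groups of values examined, chance alone gives such a flag in about 1 of 20, and no other group was flagged. The library is the highest of its group and far above all libraries of both knockdowns. With each sample left out in turn, this library included, the log2 fold change of Ces4a in shG0s2 against shLacZ ran from −6.20 to −5.93.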

How the results depend on the processing

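Across 769 alternative fits of 47 gene results, 720 kept direction and, for genes with a test, side of the threshold. Another 22 passed where the reported fit did not, 20 no longer passed and 7 changed sign. For Ces4a, which carries no test, a fit was kept if its log2 fold change moved by less than the SD of log2 CPM in the first-named group. That margin is wide: the move in shG0s2 against shLacZ from −6.09 to −5.62 with library size alone counted as kept. Fits of Ces4a and Ces1a are part of the tally and add no weight to it. Library size alone moved most. It gave 10067 genes higher and 1246 lower in shG0s2 against shLacZ (89.0% of calls higher, against 51.7% with TMM), 7686 and 1279 in shRgs16 against shLacZ (85.7%, against 50.1%), and 6054 and 1568 in shG0s2 against shRgs16 (79.4%, against 50.6%). With it the members other than Ces4a called lower in shRgs16 against shLacZ were 3, and the log2 fold change changed sign for Ces2d-ps (0.13) and Ces2g (0.39) in shG0s2 against shLacZ and for Ces1g in shG0s2 against shRgs16 (0.18). Ratios of mean level of members changed sign in deposited TPM for Ces1c in shG0s2 over shLacZ (0.04), Ces1e in shG0s2 over shRgs16 (0.02), Ces2c in shRgs16 over shLacZ (0.08) and Ces1g in shG0s2 over shRgs16 (0.25, and 0.17 with library size alone), and of other tested Ces genes for Ces1f in shG0s2 over shRgs16 (0.02), Ces2g in shRgs16 over shLacZ (0.12) and Ces2g (0.60) and Ces2d-ps (0.35) in shG0s2 over shLacZ. The members other than Ces4a called higher in shG0s2 against shLacZ were 1 with all 12 samples in the fit and 1 to 2 with each sample left out, since Ces2c was near the threshold. With each sample left out, values in shG0s2 against shRgs16 ran from −0.11 to 0.09 for Ces1g and from −0.07 to 0.26 for Ces1d. The causes were not tested. Replicate numbers did not pair the samples (correlation of same-numbered deviations −0.07 to 0.14). With the replicate block 6 of the 9 members fell and 2 rose in shG0s2 against shLacZ, and 5 fell and 2 rose in shRgs16 against shLacZ, as without it. In shG0s2 against shRgs16 Ces3a also passed as lower with the block (−0.74). At 3 to 8 counts per shG0s2 library, counting error limits the precision of the Ces4a fold.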
